A study of Mus musculus with 18 samples.

Results

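Collagen mRNA was measured by RNA-seq in the livers of 18 male mice, and the results below concern the collagen genes alone. The genes were chosen by their symbol, "Col", a number, "a" and a number, with more than 100 reads summed over all mice. Of 44 such symbols among 35441 rows of the count table, 30 passed, out of 14533 genes that passed the same filter. Each of the 6 groups holds 3 mice: WT mice, Lipa-/- mice, and Lipa-/- mice given 1 intravenous injection of the vector rAAV8.hAAT.LIPA (treated Lipa-/- mice), each sampled at 12- and 34-weeks post-injection, which the labels call 3months and 8months. By the study's methods, most Lipa-/- mice of the 34-week cohort were killed earlier, on reaching predefined endpoints, so "34-weeks" names the cohort of these Lipa-/- mice rather than the age of each, and a comparison at that time may set mice of different ages side by side. Lipa-/- mice lack exon 4 of Lipa, the gene of lysosomal acid lipase (LAL), in every cell, since the floxed allele was deleted with a CMV-driven Cre. The treated mice carry the same deletion, and their vector expresses human LIPA with a 3xHA tag from the human α1-antitrypsin promoter, which is used for expression in hepatocytes. The WT and the untreated Lipa-/- mice are listed without treatment, and the line was kept on a C57BL/6N background.

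Collagens are secreted trimers that form the scaffold of the extracellular matrix. Fibrillar collagens (types I, III and V) build the fibres that widen in a scarred liver, type VI forms beaded filaments between fibres and cells, type IV forms the sheet of basement membranes, and the smaller families decorate fibrils or anchor them to cells. In liver, most fibrillar collagen comes from stellate cells and portal fibroblasts, whereas hepatocytes are known to make collagen XVIII. LAL breaks down cholesteryl esters and triglycerides in lysosomes, and its loss fills hepatocytes and macrophages with lipid.

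The libraries held 17527848 to 25833134 reads assigned to genes. Levels are CPM (counts scaled to a common library total) with TMM factors, which ranged from 0.587 to 1.69 and correct for a few abundant genes taking up a library. A count of 3 reads corresponds to 0.0946 to 0.291 CPM. Changes are given as log2 fold changes with their SE from a single edgeR fit. A gene was called higher or lower when its log2 fold change passed 1 in size with an adjusted p under 0.05 over all 14533 genes. Murine Lipa lay at 202 to 323 CPM in WT mice and at 16.7 to 37.0 CPM in the 12 mice with the deletion, and hLIPA was read at 523 to 2746 CPM in treated mice and at no more than 0.906 CPM in any other. All 34-week livers carry a single study code, all 12-week livers another, apart from Lipa-/- mouse 5, so time and study code cannot be told apart. Treated mouse 10 at 12-weeks, with the smallest library and the lowest TMM factor, stood apart from the other treated mice for several collagens, and results that turn on it are given with and without it. These are bulk livers, in which fewer cells of a type and less RNA per cell cannot be told apart.

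The collagen genes lie on 12 chromosomes, and some are neighbours. In the GRCm39 annotation (GENCODE), Col4a1 and Col4a2 lie head to head on chromosome 8, with starts 316 bases apart and overlapping first ends. Col4a3 and Col4a4 share a start region on chromosome 1 in the same way, with 102 bases between starts, and Col4a5 and Col4a6 are separated by 1281 bases on chromosome X. Col3a1 (45350698 to 45395840) and Col5a2 lie tail to tail on chromosome 1 with 23.7 kb between them, and Col6a2 and Col6a1 follow each other on chromosome 10, 85.1 kb apart. Col1a1 (chromosome 11, 94827050 to 94843868) and Col1a2 (chromosome 6, 4504814 to 4541555), the chains of type I collagen, share no locus. The 250 bases before the RefSeq start, placed on GRCm39 by exact match, are shown for 4 genes, as examples from those with a RefSeq entry, with Col1a2, Col3a1 and Col6a1 for type I, III and VI chains that rose and Col5a3 for a chain that fell. Capitals mark the CCAAT box, the core of the TATA box (TATAAA) and the core of the GC box (GGGCGG), searched on either strand.
Col1a2 (chr6:4505368-4505617, plus strand): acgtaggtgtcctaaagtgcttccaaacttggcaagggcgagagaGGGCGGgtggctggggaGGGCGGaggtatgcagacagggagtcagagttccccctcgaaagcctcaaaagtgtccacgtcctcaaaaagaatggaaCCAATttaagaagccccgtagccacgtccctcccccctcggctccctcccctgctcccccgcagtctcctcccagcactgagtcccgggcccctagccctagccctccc
Col3a1 (chr1:45350448-45350697, plus strand): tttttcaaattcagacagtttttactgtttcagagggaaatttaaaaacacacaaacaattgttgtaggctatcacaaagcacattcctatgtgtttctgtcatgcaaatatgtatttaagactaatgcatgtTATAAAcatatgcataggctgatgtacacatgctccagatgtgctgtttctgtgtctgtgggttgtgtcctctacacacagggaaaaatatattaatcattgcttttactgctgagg
Col6a1 (chr10:76561879-76562128, minus strand): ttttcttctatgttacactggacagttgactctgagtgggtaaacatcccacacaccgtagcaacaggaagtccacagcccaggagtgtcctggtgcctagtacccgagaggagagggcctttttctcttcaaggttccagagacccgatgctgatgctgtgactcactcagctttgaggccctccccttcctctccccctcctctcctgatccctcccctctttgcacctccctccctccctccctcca
Col5a3 (chr9:20726364-20726613, minus strand): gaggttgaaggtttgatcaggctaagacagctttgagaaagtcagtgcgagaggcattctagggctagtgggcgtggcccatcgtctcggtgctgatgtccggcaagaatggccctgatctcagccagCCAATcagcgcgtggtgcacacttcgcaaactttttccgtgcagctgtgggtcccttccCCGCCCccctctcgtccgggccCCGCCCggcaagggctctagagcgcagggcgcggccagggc
Counted from the RefSeq start, Col1a2 holds CCAAT 109 bases before, Col3a1 holds TATAAA 117 bases before and Col5a3 holds CCAAT 122 bases before. Col6a1 holds none of the 3 motifs in this window. RefSeq and GENCODE starts differ for some of these genes. The Col1a2 and Col6a1 windows lie within the GENCODE genes and that of Col5a3 overlaps its gene. Only the Col3a1 window ends just before the GENCODE start. Of the 25 members with a RefSeq entry, 8 held CCAAT against 36.5% of 10985 tested genes, 17 held GGGCGG against 56.6%, and 3 held TATAAA against 7.14%. Col1a2, which rose, and Col5a3, which fell, both held CCAAT and GGGCGG. Col12a1, Col14a1, Col1a1, Col4a3 and Col5a2 had no entry.

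In WT livers most collagen mRNA was Col18a1, the basement membrane collagen whose tail is known as endostatin. On the TPM scale, which is per length and per library, Col18a1 took 77.5% ± 3.65 (SD, n = 3) of all collagen TPM at 12-weeks and 74.7% ± 1.65 at 34-weeks in WT mice. Type I and III chains (Col1a1, Col1a2 and Col3a1) together made up 3.94% ± 1.6 and 4.85% ± 0.147. In Lipa-/- mice type I and III stood at 39.8% ± 11.4 and then 52.4% ± 7.66 of collagen TPM, and Col18a1 at 33.8% ± 11.6 and 18.3% ± 6.6. Within Lipa-/- mice at 12-weeks, the gap between the type I and III share and the Col18a1 share was smaller than the spread between mice. The summed collagen TPM was 157 ± 62 in WT and 377 ± 62.2 in Lipa-/- mice at 12-weeks, and 198 ± 100.2 against 917 ± 431 at 34-weeks. Treated mice at 34-weeks had a make-up near that of WT mice, with Col18a1 at 73.7% ± 2.57 and type I and III at 6.47% ± 2.51. Treated mice at 12-weeks lay between in these shares, at 46% ± 18 and 27.3% ± 14.4, with a wide spread between mice. Their summed collagen TPM was 77.3 ± 17.3 (58.6 to 92.7), below every WT mouse at that time (108 to 227). Col18a1 was at 34.5 ± 12.1 TPM in them, against 123 ± 54.5 in WT and 123 ± 27.8 in Lipa-/- mice. At 34-weeks the collagen sum of treated mice was 245 ± 96.5 TPM. Shares within a mouse, unlike summed TPM, do not depend on how libraries are scaled.

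**Figure D1:**
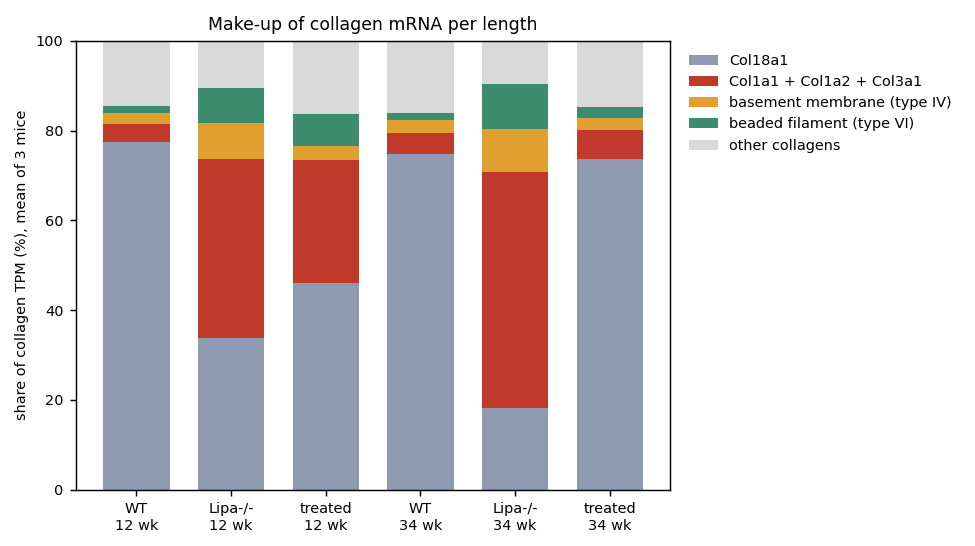
Mean share of collagen TPM (y axis, %, 3 mice per group) taken by Col18a1, by Col1a1, Col1a2 and Col3a1 together, by type IV, by type VI and by all other collagens, for the 6 groups on the x axis. Col18a1 fills 77.5% of the bar in WT mice at 12-weeks and 18.3% in Lipa-/- mice at 34-weeks.

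The comparison of Lipa-/- with WT mice asks what loss of LAL does to the liver's collagen genes. Type I and type III collagen rose, with Col1a1 and Col1a2 showing the largest log2 fold changes of the 30 members at both times. Col1a1, the main chain of type I collagen, was at 2.36, 4.45 and 4.03 CPM in the WT mice at 12-weeks and at 177, 113 and 175 CPM in the Lipa-/- mice. At 34-weeks it was at 3.6, 8.71 and 8.17 CPM in WT and at 829, 326 and 443 CPM in Lipa-/- mice. Every Lipa-/- mouse was above every WT mouse at both times, and the log2 fold change was 5.42 ± 0.68 (SE, adjusted p = 9.99e-06) and then 6.28 ± 0.70 (adjusted p = 2.25e-06). Col1a2, its partner chain, went from 3.43, 8.52 and 7.85 CPM in WT to 208, 157 and 319 CPM in Lipa-/- mice at 12-weeks, and from 4.31, 12.9 and 12.2 to 706, 354 and 465 CPM at 34-weeks. These are log2 fold changes of 5.11 ± 0.58 and 5.69 ± 0.59 (adjusted p = 3.7e-06 and 1.14e-06), again without overlap. Col3a1, which forms type III homotrimers that mix with type I, was at 8.04, 16.5 and 15.8 CPM in WT and 128, 171 and 326 CPM in Lipa-/- mice at 12-weeks, and at 14.9, 22.9 and 21.7 against 547, 239 and 365 CPM at 34-weeks. Its log2 fold changes were 3.95 ± 0.56 (adjusted p = 3.54e-05) and 4.27 ± 0.57 (adjusted p = 1.33e-05).

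**Figure D2:**
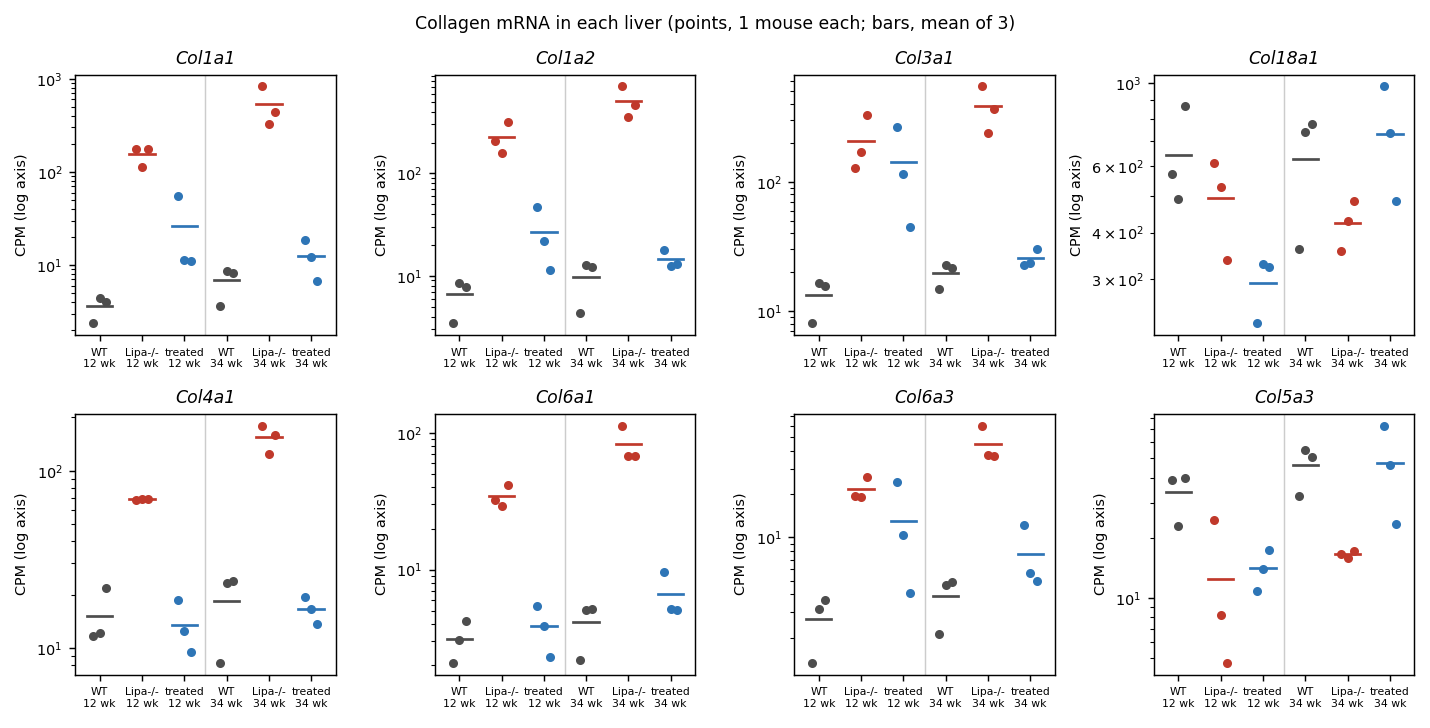
CPM on log y axes (scales differ between panels) of 8 collagen genes in each mouse, by group on the x axis. Points are mice, bars are means of 3 mice. For Col1a1 all Lipa-/- mice (113 to 829 CPM) lie above all other mice, whereas for Col18a1 the Lipa-/- mice overlap with WT mice at both times.

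The ratio of type III to type I was lower in all Lipa-/- than in all WT mice at both times. Per length, the 12-week TPM of Col3a1 was 7.72 ± 0.93 times that of Col1a1 in WT mice and 2.15 ± 1.07 times in Lipa-/- mice. At 34-weeks the TPM ratio was 5.12 ± 1.15 in WT and 1.12 ± 0.0803 in Lipa-/- mice. In reads, the ratio was 4.13, 2.62 and 2.65 in the WT mice and 0.66, 0.731 and 0.825 in the Lipa-/- mice at 34-weeks, without overlap. With 3 mice against 3, an exact permutation test of such a ratio cannot give a p below 0.1, so none is given.

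Type V collagen, which nucleates type I fibrils and limits their width, split between its chains. Col5a2 rose from 1.13, 2.11 and 2.77 to 12.3, 15 and 27.6 CPM at 12-weeks and from 0.59, 2.88 and 2.02 to 56.2, 27.4 and 35.8 CPM at 34-weeks, and Col5a1 rose from 3.47 ± 1.72 to 12.4 ± 2.32 CPM and from 4.68 ± 2.29 to 41.8 ± 22.5 CPM (SD, n = 3). The log2 fold changes were 3.19 and 4.41 for Col5a2, and 1.84 and 3.14 for Col5a1. Col5a3, the third type V chain, fell instead. It was at 39.1, 22.9 and 39.7 CPM in WT and 24.4, 8.19 and 4.73 CPM in Lipa-/- mice at 12-weeks, and at 32.5, 54.9 and 50.6 against 16.6, 15.8 and 17.2 CPM at 34-weeks. At 34-weeks all WT mice were above all Lipa-/- mice, whereas at 12-weeks Lipa-/- mouse 5 overlapped with WT mice. The log2 fold changes of -1.44 ± 0.48 (adjusted p = 0.0242) and -1.48 ± 0.48 (adjusted p = 0.0176) kept their sign but lost the call with total-count scaling (-0.98 and -0.88) and with 4 of 6 and 3 of 6 mice left out in turn. Col27a1, a fibrillar collagen known from cartilage, was at 48.7, 20.3 and 29.9 CPM in WT and 12.4, 4.04 and 1.45 CPM in Lipa-/- mice at 12-weeks (log2 fold change -2.46 ± 0.67, adjusted p = 0.00758). At 34-weeks the groups stood at 10.8 to 16.1 and 8.49 to 9.84 CPM and it was not called (-0.52 ± 0.64, adjusted p = 0.53). Col11a2, another minor fibrillar chain, stayed within 0.366 to 0.965 CPM in WT and 0.583 to 0.958 CPM in Lipa-/- mice at 12-weeks and was not called at either time.

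The 3 chains that make up the common type VI trimer rose together. Col6a1 was at 2.09, 3.06 and 4.19 CPM in WT and 32.4, 29.3 and 41.6 CPM in Lipa-/- mice at 12-weeks, and at 2.18, 5.04 and 5.18 against 113, 67.7 and 67.3 CPM at 34-weeks (log2 fold changes 3.46 ± 0.40 and 4.31 ± 0.41, adjusted p = 5.14e-06 and 5.7e-07). Col6a2, encoded next to it, was at 0.75, 2.87 and 2.77 and 30.4, 25.6 and 30.5 CPM at 12-weeks, and at 1, 3.74 and 3.46 and 104, 61.3 and 56.1 CPM at 34-weeks. Col6a3, the longest chain, was at 1.34, 3.16 and 3.66 and 19.3, 19 and 26.3 CPM at 12-weeks, and at 2.12, 4.65 and 4.87 and 59.9, 37.7 and 37 CPM at 34-weeks. None of these groups overlapped, and the changes were 3.75 and 4.73 for Col6a2, and 2.98 and 3.52 for Col6a3. The alternative chains were rare. Col6a5 had a mean of 0.121 ± 0.0817 CPM in WT and 0.388 ± 0.162 CPM in Lipa-/- mice at 12-weeks, and was called only at 34-weeks, at 0.124 ± 0.0975 against 1.1 ± 0.524 CPM (log2 fold change 3.03 ± 0.95, adjusted p = 0.0143), a call that was lost with gene-length offsets (adjusted p = 0.208) and in 3 of 6 fits that left out a mouse (WT mouse 1, WT mouse 3 or Lipa-/- mouse 5, adjusted p up to 0.0561). Col6a6 was not called at either time, with log2 fold changes of 0.70 ± 0.78 and 1.45 ± 0.68.

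All type IV chains were higher in Lipa-/- mice at 34-weeks. Col4a1, the chain of every basement membrane, was at 11.6, 12.2 and 21.7 CPM in WT and 68.5, 69.4 and 69.2 CPM in Lipa-/- mice at 12-weeks, and at 8.26, 23.2 and 23.8 against 179.8, 124 and 159.7 CPM at 34-weeks (log2 fold changes 2.19 ± 0.36 and 3.07 ± 0.37, adjusted p = 0.000143 and 5.01e-06). Col4a2, its partner from the same start region, was at 6.86, 6.27 and 11 and 29.3, 30.4 and 46 CPM, and then at 4.6, 12.8 and 15.6 and 133, 71.2 and 104 CPM, with near-equal changes of 2.13 ± 0.41 and 3.21 ± 0.42. No Lipa-/- mouse overlapped with a WT mouse for either chain. The chains best known from the kidney filter were low but rose too. Col4a3 was at 0.395 ± 0.119 and 2.74 ± 0.873 CPM at 12-weeks, and Col4a5 at 1.05 ± 0.604 and 6.56 ± 4.8 CPM, with changes of 2.78 and 2.62 (at 34-weeks 3.03 and 3.74). Col4a4 reached no more than 2.36 CPM in any mouse, and its call at 12-weeks (1.97 ± 0.70, adjusted p = 0.0334) was lost when WT mouse 1, WT mouse 2 or Lipa-/- mouse 5 was left out. Col4a6 was called at 34-weeks only, at 0.098 ± 0.0338 against 1.18 ± 0.52 CPM, and passed the read filter only through these Lipa-/- mice (103 of 153 reads).

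The other families moved less evenly. The multiplexin Col18a1 did not pass the test at either time. It was at 572, 491 and 867 CPM in WT and 612, 529 and 337 CPM in Lipa-/- mice at 12-weeks and at 362, 741 and 777 against 358, 430.0 and 485 CPM at 34-weeks, with overlap at both times (log2 fold changes -0.38 ± 0.34 and -0.56 ± 0.34). The related Col15a1 was at 6.81, 3.68 and 6.6 and 8.59, 9.86 and 15 CPM at 12-weeks (change 0.97 ± 0.40, adjusted p = 0.0638), and at 5.96, 8.55 and 13 and 37.5, 18.3 and 32.9 CPM at 34-weeks, when it was called (1.69 ± 0.40, adjusted p = 0.00227). Among the collagens that sit on the surface of fibrils, Col12a1 was at 2.14, 1.44 and 1.31 CPM in WT and 3.26, 4.16 and 6.59 CPM in Lipa-/- mice at 12-weeks, and at 1.71, 3 and 2.69 against 19.7, 7.61 and 12.1 CPM at 34-weeks (changes 1.52 ± 0.43 and 2.41 ± 0.42). The Col12a1 call at 12-weeks was lost without Lipa-/- mouse 9 (adjusted p = 0.0517). Col16a1 rose by log2 fold changes of 1.54 and 2.19. Col14a1, of the same family, was called at neither time, at 24.1 ± 7.02 and 42.5 ± 9.83 CPM at 12-weeks and at 35.7 ± 10.9 and 29.9 ± 2.11 CPM at 34-weeks. Col20a1 was not called either, at under 1 CPM in all WT and Lipa-/- mice.

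The members at the cell surface went in opposite directions. Col13a1, a transmembrane collagen of adhesion sites, was at 2.89, 2.11 and 3.56 CPM in WT and 0.284, 0.388 and 0.849 CPM in Lipa-/- mice at 12-weeks, and at 1.53, 4.65 and 3.46 against 0.788, 0.348 and 1.03 CPM at 34-weeks. It was lower in every Lipa-/- mouse, with log2 fold changes of -2.49 ± 0.51 (adjusted p = 0.00102) and -2.15 ± 0.49 (adjusted p = 0.00178). Col23a1, of the same kind, was at 0.059, 0.158 and 0.272 CPM in WT and 1.61, 0.657 and 0.956 CPM in Lipa-/- mice at 34-weeks (change 2.62 ± 0.63, adjusted p = 0.00266) and was not called at 12-weeks. Of the type VIII chains, which form hexagonal networks, Col8a1 was at 0.268, 0.766 and 0.576 and 2.27, 2.21 and 2.18 CPM at 12-weeks and at 0.413, 0.394 and 0.623 and 3.78, 3.09 and 2.17 CPM at 34-weeks. Col8a1 was called at both times (2.03 and 2.64), although not at 12-weeks without WT mouse 1. Col8a2 was at 0.709 ± 0.532 CPM in Lipa-/- mice at 34-weeks, and its call at 34-weeks (2.77 ± 0.93, adjusted p = 0.0219) was made in only 2 of the 6 fits that left out a mouse. Col7a1, the anchoring fibril collagen of skin, was not called, and its highest value, 1.42 CPM, came from Lipa-/- mouse 4 at 34-weeks alone.

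**Figure D3:**
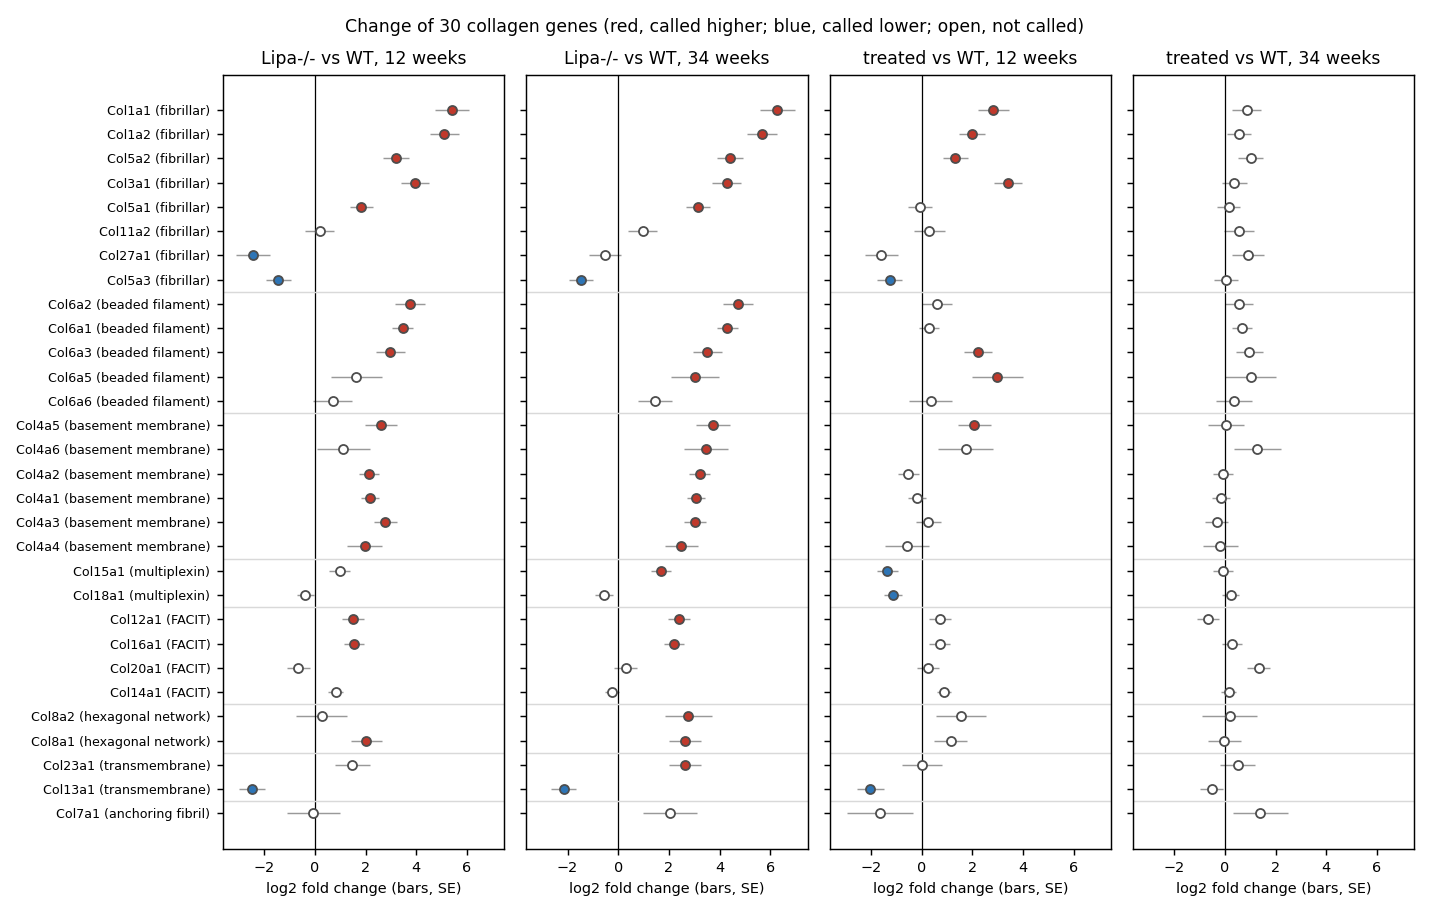
Log2 fold change (x axis, bars are SE from the edgeR fit) of each of the 30 collagen genes (y axis, grouped by family) in 4 comparisons, with red points called higher, blue points called lower and open points not called. At 34-weeks 21 genes are red in Lipa-/- mice and all 30 points are open in treated mice.

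In all, 16 of the 30 collagen genes were called higher and 3 lower in Lipa-/- mice at 12-weeks, where 20.2% of all genes tested were called higher and 9.06% lower. At 34-weeks 21 were higher and 2 lower, against 20.5% and 15.7% of all genes. The median log2 fold change of the members was 1.59 at 12-weeks and 2.70 at 34-weeks, and that of all genes was 0.02 and -0.03. The mice did not overlap, with Lipa-/- above WT, for 21 members at 12-weeks and 21 at 34-weeks, as was so for 28.6% and 30.5% of all genes. By family, fibrillar genes gave 5 higher and 2 lower of 8 at 12-weeks, type IV genes 5 of 6 and type VI genes 3 of 5 higher. Of the called members, 15 of 19 at 12-weeks and 19 of 23 at 34-weeks were called in every fit that left out a mouse. Without Lipa-/- mouse 5, the 12-week mouse with another study code, 18 members were called, 15 of them higher. Under total-count scaling, which shifted the median of all genes by 0.47 and 0.63, 19 members were higher and 2 lower at 12-weeks, and 24 and 1 at 34-weeks. That scaling moved the share of higher calls among all genes called from 69.1% to 87.2% and from 56.6% to 81.8%, so changes are read relative to the median gene. The share of all genes called with that scaling is not given here, so its member counts stand without a background.

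Cell markers were counted for Lipa-/- against WT mice as well. This comparison called 20.2% of all genes higher and 9.06% lower at 12-weeks, and 20.5% and 15.7% at 34-weeks. The part of the markers in the collagen changes was not tested. Of 12 stellate cell markers, 4 were higher and 2 lower at 12-weeks, and 4 and 4 at 34-weeks, and none was at 0 in any group. Their summed level was 142 to 226 CPM in WT and 222 to 291 CPM in Lipa-/- mice at 12-weeks, and 199.8 to 239 against 255 to 288 CPM at 34-weeks. Of 10 myofibroblast markers, 5 and 7 were higher and none lower, with sums of 39 to 95.8 and 466 to 2351 CPM at 12-weeks and 57.6 to 68.8 and 1072 to 1908 CPM at 34-weeks. Spp1, osteopontin, made up most of that sum in Lipa-/- mice and is also on the list of 8 cholangiocyte markers. Of these, 5 and 7 were higher, with sums of 50.5 to 66.8 CPM in WT and 1043 to 1831 CPM in Lipa-/- mice at 34-weeks. Spp1 made up most of this sum too, with a mean of 35.5 of 56.9 CPM in WT and 1423 of 1508 CPM in Lipa-/- mice at 34-weeks. Portal fibroblast and mesothelial markers were higher for 5 and 6 of 9, with sums of 86.6 to 149.9 and 256 to 341 CPM at 34-weeks. Macrophage markers were higher for 7 and 6 of 10 and lower for 1 and 2 (sums 145 to 277 and 3389 to 4676 CPM at 34-weeks). Gpnmb and Lgals3 made up most of that sum in Lipa-/- mice, with means of 2246 and 1012 CPM at 34-weeks. Clec4f had means of 114 CPM in WT and 17.1 CPM in Lipa-/- mice at that time. Neutrophil markers were higher for 8 and 6 of 8, with Ly6g, Ngp, Camp and Mpo at 0 in WT mice at 12-weeks. Sinusoidal endothelial markers were higher for 2 and 3 of 10 and lower for 6 and 5, and vascular endothelial markers were called 1 higher and 1 lower of 6 at each time. T and NK cell markers were higher for 5 and 4 of 7, and B cell markers for 2 and 1 of 6, with 1 lower at 34-weeks. Hepatocyte markers fell for 3 and 5 of 10 with 1 higher at 34-weeks, and summed to 72561 to 95727 CPM in WT and 31114 to 58030.4 CPM in Lipa-/- mice at 34-weeks.

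Between 12- and 34-weeks no collagen gene of Lipa-/- mice passed the test. Of the 30 members, 27 had a positive log2 fold change between the times (median 1.16), 16 did not overlap, as was so for 11.4% of all genes, and 15 had an unadjusted p under 0.05. None passed the adjusted p with edgeR, against 0.495% of all genes called in either direction, whereas DESeq2 called 9 members, where it called 3.01% of all genes. Col5a1 went from 14.4, 9.86 and 12.9 CPM to 66.9, 23.7 and 34.8 CPM (change 1.75 ± 0.45, adjusted p = 0.0694), and Col4a2 had the lowest adjusted p (1.54 ± 0.39, adjusted p = 0.0679). In WT mice no member was called between the times (0.323% of all genes, 1 member with an unadjusted p under 0.05). The difference between Lipa-/- and WT mice did not itself pass a test between the times for any member (0.0619% of all genes, 2 members with an unadjusted p under 0.05), and DESeq2 called 0 members in both of these comparisons.

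The comparison of treated with Lipa-/- and WT mice asks how far the vector returned collagen expression to the WT level. At 12-weeks 11 members were lower in treated than in Lipa-/- mice and none was higher, where 25.3% of all genes were called lower and 16.2% higher. The median change was -0.82 for the members and -0.19 for all genes. Against WT mice, with which this comparison shares the treated mice, 7 members were still called higher and 4 lower, where 13.6% of all genes were higher and 12% lower. The medians were 0.33 and 0.06. Total-count scaling shifts the median gene by -0.87 against Lipa-/- and by -0.39 against WT mice. With it, 19 members were lower against Lipa-/- mice, and 5 were higher and 5 lower against WT mice, and the share of higher calls among all genes called went from 39.0% to 8.92% and from 53.1% to 24.4%. The share of all genes called with this scaling is not given here, so these member counts stand without a background.

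Col4a1 to Col4a4, Col6a1, Col6a2 and Col5a1 were lower in treated than in Lipa-/- mice at 12-weeks and were not called against WT mice. Col4a1 was at 18.7, 12.5 and 9.43 CPM in treated mice, below every Lipa-/- mouse (change -2.36 ± 0.36, adjusted p = 7.97e-05) and with a change of -0.17 ± 0.35 against WT mice. Col4a2 was at 4.96, 6.47 and 5.29 CPM, Col6a1 at 5.44, 3.86 and 2.3 CPM and Col6a2 at 6.7, 2.17 and 1.3 CPM, with changes against Lipa-/- mice of -2.65, -3.16 and -3.13. Type I chains were lower than in Lipa-/- mice and above WT mice. Col1a1 was at 55.8, 11.2 and 11 CPM, with the highest value from mouse 10, a change of -2.58 ± 0.59 against Lipa-/- mice (adjusted p = 0.0017) and of 2.83 ± 0.61 against WT mice (adjusted p = 0.00501). Without mouse 10 the change against WT mice was 1.54 (adjusted p = 0.0396). Col1a2 was at 46.5, 21.6 and 11.3 CPM, with changes of -3.11 and 2.00, and was not called against WT mice without mouse 10 (1.25, adjusted p = 0.0763).

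Col3a1 stood out at 12-weeks. It was at 267, 115 and 45 CPM in treated mice, above every WT mouse (8.04 to 16.5 CPM) and overlapping with Lipa-/- mice (128 to 326 CPM). The change was 3.41 ± 0.55 against WT mice (adjusted p = 0.00173) and -0.55 ± 0.50 against Lipa-/- mice (adjusted p = 0.361). Without mouse 10 these were 2.51 (adjusted p = 0.00762) and -1.40 (adjusted p = 0.0255), and total-count scaling also called Col3a1 lower than in Lipa-/- mice (-1.47). In TPM, treated mice (26.2, 18.3 and 6.48) lay below all Lipa-/- mice (34.6, 53.4 and 120) and above all WT mice (3.05 to 4.78). The mean effective length that Salmon assigned to Col3a1 was 4089 bases in treated, 3722 in Lipa-/- and 2751 in WT mice. The part of length in the overlap of CPM was not tested. Within each mouse, the ratio of Col3a1 to Col1a1 reads was 4.79, 10.3 and 4.1 in treated mice, 0.722, 1.52 and 1.87 in Lipa-/- mice and 3.41, 3.71 and 3.91 in WT mice. All treated and WT mice were thus above all Lipa-/- mice. Within type VI collagen the treated mice, rather than the Lipa-/- mice, stood apart. Col6a3 was at 24.4, 10.4 and 4.06 CPM in treated mice (change 2.23 ± 0.55 against WT mice, adjusted p = 0.00842, lost without mouse 10 at adjusted p = 0.0696). Its reads were 4.48, 2.69 and 1.77 times those of Col6a1 in treated mice, 0.596, 0.646 and 0.633 times in Lipa-/- mice and 0.641, 1.03 and 0.875 times in WT mice, so that all treated mice were above all others at this time. The mean effective length that Salmon assigned to Col6a3, which depends on the mix of transcripts, was 1623 bases in treated mice, 2570 in Lipa-/- and 2239 in WT mice at 12-weeks, against 3858, 3852 and 3862 bases for Col6a1. The part of the transcript mix in the ratio was not tested.

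**Figure D4:**
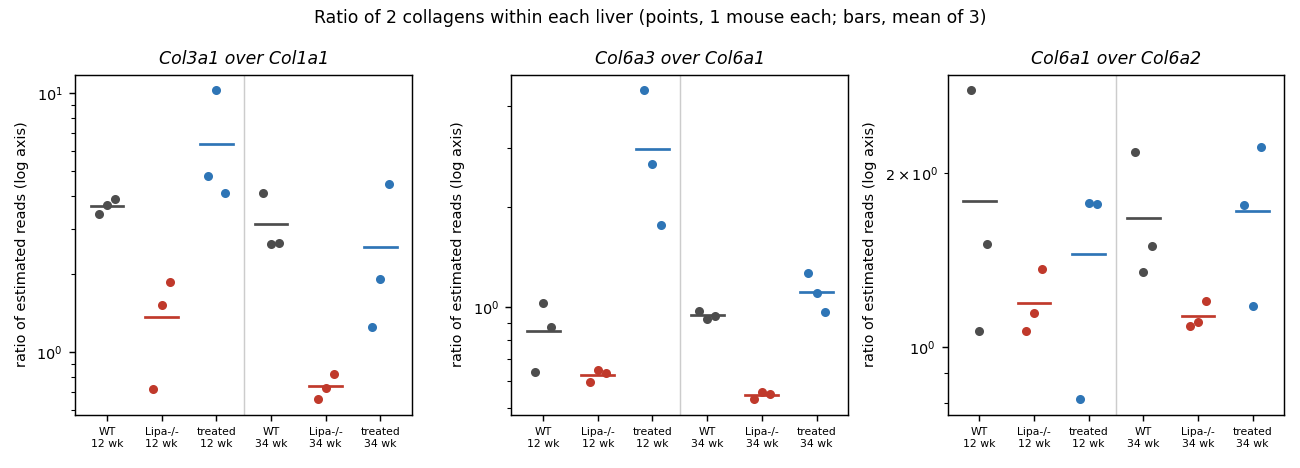
Ratio of estimated reads of 2 collagen genes within each mouse (log y axes, points are mice, bars are means of 3) for Col3a1 over Col1a1, Col6a3 over Col6a1 and Col6a1 over Col6a2, by group on the x axis. For Col6a3 over Col6a1 the treated mice at 12-weeks (1.77 to 4.48) lie above all other mice.

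Of the remaining calls against WT mice at 12-weeks, that of Col13a1 alone was made in every fit that left out a mouse. Col4a5 (2.09), Col5a2 (1.32) and Col6a5 (2.98) were higher, each overlapping with WT mice, and none of these was called without mouse 10. For Col6a5 that mouse held 2.62 CPM and the other treated mice 0.326 and 0.153 CPM. Col18a1 was lower, at 229, 330.4 and 323 CPM against 572, 491 and 867 CPM in WT mice, without overlap (-1.13 ± 0.34, adjusted p = 0.0187), but its call was lost without mouse 10 or WT mouse 3. Col15a1 was at 1.55, 1.9 and 3.22 CPM, below WT (-1.35 ± 0.43, adjusted p = 0.0242) and Lipa-/- mice (-2.32 ± 0.43, adjusted p = 0.00039). Col13a1, at 0.874, 0.489 and 0.767 CPM, and Col5a3, at 10.8, 14 and 17.4 CPM, were in or near the range of Lipa-/- mice (0.284 to 0.849 and 4.73 to 24.4 CPM), with changes against WT mice of -2.03 ± 0.52 and -1.27 ± 0.48. Without mouse 10 neither Col5a3 nor Col15a1 was called against WT mice (adjusted p = 0.136 and 0.0829). With gene-length offsets Col13a1 was not called against WT mice (-0.49) and was called higher than in Lipa-/- mice (2.14), and its mean effective length was 785 bases in treated and 2215 in WT mice. Of the 11 calls against WT mice only 3 were made in every fit that left out a mouse, for Col1a1, Col3a1 and Col13a1. Against Lipa-/- mice 10 of 11 were. Of the cell markers, 5 of 10 myofibroblast markers were higher in treated than in WT mice at 12-weeks (sums 86.2 to 281 CPM), 1 of 12 stellate cell, none of 9 portal fibroblast and mesothelial and 5 of 10 macrophage markers (sums 475 to 687 CPM). The shares over all genes were 13.6% higher and 12% lower. T and NK cell markers were higher for 4 of 7, B cell markers for 3 of 6, neutrophil markers for 1 of 8, and sinusoidal endothelial markers for 1 of 10 with 2 lower, and 1 of 10 hepatocyte and 1 of 8 cholangiocyte markers were lower. Against Lipa-/- mice at 12-weeks, 4 of 10 myofibroblast, 5 of 8 cholangiocyte, 6 of 10 macrophage, 6 of 8 neutrophil, 4 of 9 portal fibroblast and mesothelial, 4 of 12 stellate cell, 3 of 10 sinusoidal endothelial and 1 of 6 vascular endothelial markers were lower, and 2 myofibroblast, 2 stellate cell, 2 macrophage, 2 hepatocyte, 5 sinusoidal endothelial, 1 vascular endothelial, 1 T and NK cell and 2 B cell markers were higher. Over all genes, 25.3% were lower and 16.2% higher than in Lipa-/- mice at 12-weeks. The part of the cell markers in the collagen calls was not tested.

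At 34-weeks no collagen gene was called between treated and WT mice, by edgeR or by DESeq2, where 0.131% of all genes were called higher and 0.0895% lower. Total-count scaling also called no member and moved the share of higher calls among the few genes called from 59.4% to 70.8%. A single member, Col20a1, had an unadjusted p under 0.05, and the median change was 0.32 for the members and 0.00 for all genes. Col1a1 was at 18.4, 12.2 and 6.81 CPM in treated and 3.6, 8.71 and 8.17 CPM in WT mice (0.86 ± 0.57, adjusted p = 0.965). Col1a2 was at 18, 12.3 and 13 CPM (0.56 ± 0.49), Col3a1 at 22.9, 23.4 and 30.5 CPM (0.37 ± 0.50) and Col6a1 at 9.67, 5.14 and 5.1 CPM (0.67 ± 0.38). Positive changes were seen in 22 of 30 members, and 4 members lay above WT mice without overlap, as did 4.78% of all genes. Among the cell markers, 3 of 10 macrophage, 1 of 10 hepatocyte and 1 of 7 T and NK cell markers were higher and none on the other lists was called. The summed neutrophil markers were at 3.05, 1.69 and 849 CPM in treated mice 9, 11 and 12. They were at most 5.49 CPM in WT and 108 to 294 CPM in Lipa-/- mice, so mouse 12 stood above all of these. Of the treated mice, mouse 12 had the lowest Col1a1 (6.81 CPM) and the highest Col3a1 (30.5 CPM). A link between neutrophil markers and collagen levels was not tested. Leaving mouse 12 out also gave no call against WT mice. A missed threshold does not show equal levels, since with these SEs a change of 1 on the log2 scale lies within 2 SE of the estimate for Col1a1.

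Against Lipa-/- mice, 20 members were lower in treated mice at 34-weeks and 2 higher, where 18.6% of all genes were lower and 12.8% higher, and the medians were -2.57 and 0.03. The log2 fold changes of Col1a1, Col1a2, Col6a2, Col3a1 and Col4a1 were -5.42, -5.13, -4.19, -3.90 and -3.22, with adjusted p values of 9.21e-06, 3.84e-06, 3.46e-05, 3.61e-05 and 5.24e-06. All 6 type IV chains were lower, although Col4a6 was called in only 3 of 6 fits that left out a mouse (adjusted p up to 0.116). Col4a6, Col8a2 and Col23a1, all called lower here, passed the read filter only through the Lipa-/- mice of this comparison. Col12a1 was at 1.99, 1.15 and 1.48 CPM in treated and 19.7, 7.61 and 12.1 CPM in Lipa-/- mice (-3.08 ± 0.44). Col13a1 and Col5a3, the members called lower than WT in the untreated Lipa-/- livers of the 34-week cohort, were the 2 higher ones. Col13a1 was at 1.91, 3 and 1.83 CPM (1.62 ± 0.49, adjusted p = 0.0139) and Col5a3 at 72.8, 46.4 and 23.4 CPM (1.52 ± 0.48, adjusted p = 0.0171). Of the 22 calls, 17 were made in every fit that left out a mouse. The Col13a1 and Col5a3 calls were lost with total-count scaling (1.07 and 0.98), which shifted the median gene by -0.54, gave 21 members lower and none higher, and moved the share of higher calls among all genes called from 40.8% to 18.5%. Here too, the member counts with that scaling stand without the share of all genes called. Of the cell markers against Lipa-/- mice at 34-weeks, 6 of 10 myofibroblast, 7 of 8 cholangiocyte, 6 of 10 macrophage, 5 of 9 portal fibroblast and mesothelial, 4 of 12 stellate cell, 3 of 10 sinusoidal endothelial, 1 of 6 vascular endothelial and 1 of 6 B cell markers were lower. Higher were 5 of 10 hepatocyte, 4 of 12 stellate cell, 2 of 10 sinusoidal endothelial and 1 of 10 macrophage markers, and the part of all these in the collagen falls was not tested. The comparison with WT and this comparison share the treated mice, and both comparisons of Lipa-/- mice share those mice.

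Between the times, treated mice had 4 members called higher and 2 lower at 34-weeks, where 32% of all genes were called. Col18a1 (1.32), Col15a1 (1.97), Col5a3 (1.76) and Col13a1 (1.68) were higher at 34-weeks, and Col3a1 (-2.48 ± 0.52) and Col4a5 (-2.80 ± 0.66) were lower. Col3a1 was the sole member whose difference between treated and WT mice itself differed between the times, by -3.04 ± 0.72 on the log2 scale (adjusted p = 0.0241), where 18.4% of all genes were called. In 8 members the unadjusted p was under 0.05. The Col3a1 call was lost without treated mouse 10 at 12-weeks (-2.14, adjusted p = 0.0591), and also without WT mouse 1 or 3 at 12-weeks, WT mouse 1 at 34-weeks or treated mouse 9 at 34-weeks (adjusted p = 0.0507, 0.0723, 0.0518 and 0.0699).

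Genes that make, trim, bind or break down collagen were described from lists of known genes. Of all genes, 20.2% were called higher and 9.06% lower in Lipa-/- against WT mice at 12-weeks, and 20.5% and 15.7% at 34-weeks. In Lipa-/- against WT mice, the lysyl oxidase family and transglutaminase, which crosslink collagen, were higher for 5 of 6 genes at both times. Lox was at 0.355 ± 0.236 CPM in WT and 8.29 ± 4.3 CPM in Lipa-/- mice at 12-weeks (change 4.52), and Loxl1 at 1.17 ± 0.834 and 10.4 ± 4.51 CPM (3.15). Of 21 genes of collagen folding and modification in the endoplasmic reticulum, 9 were higher and 2 lower at 12-weeks and 11 and 2 at 34-weeks. Plod2, the lysyl hydroxylase of collagen ends, changed by 3.28 and 4.50, Serpinh1, the collagen chaperone Hsp47, by 1.85 and 2.49, and Fkbp10 by 3.38 and 4.15, whereas P4hb, the general disulfide isomerase, was at -0.64 at 12-weeks, not called, and fell at 34-weeks (-1.21). Of 5 tested genes that trim propeptides, 3 were higher at both times, with Pcolce at 3.04 and 2.77 and Adamts2 at 3.33 and 4.02, and Bmp1 was not called (-0.37 and -0.51).

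Of 20 fibril-associated matrix genes, 16 were higher at 12-weeks and 18 at 34-weeks and none lower. Lum, lumican, was at 5.63 ± 1.31 CPM in WT and 114 ± 35.5 CPM in Lipa-/- mice at 34-weeks (4.34), and Thbs2 changed by 4.63 and 4.31. Fn1, fibronectin, which hepatocytes secrete into plasma, was not called (-0.24 and -0.21). Of 18 basement membrane partners, 9 were higher and 3 lower at 12-weeks and 11 and 3 at 34-weeks. Nid1, which links type IV collagen to laminin, changed by 2.27 and 3.43, and Lama3 by -4.84 and -2.76. Of 9 collagen receptors, 5 were higher at both times, among them Ddr1 (4.29 and 4.56) and Mrc2, which takes up collagen fragments (4.82 and 4.92), whereas Itgb1 (0.27 and 0.40) was not called. All 9 collagen-degrading proteases and their inhibitors were higher at both times. Mmp2 was at 1.24 ± 0.564 and 64.6 ± 16.5 CPM at 34-weeks, Ctsk, the collagen-cleaving cathepsin K that macrophages also make, at 0.523 ± 0.093 and 213 ± 70.8 CPM, and the inhibitor Timp1 at 0.294 ± 0.0569 and 44 ± 13.9 CPM. Of 19 TGF-beta and PDGF genes and regulators, 9 were higher at 12-weeks and 12 at 34-weeks. Tgfb1 changed by 3.34 and 3.06, whereas Smad2 (-0.38 and -0.13) and Smad4 (-0.30 and -0.34) were not called. Lox, Timp1, Postn, Fbn1 and Eln are also on the myofibroblast list above.

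**Figure D5:**
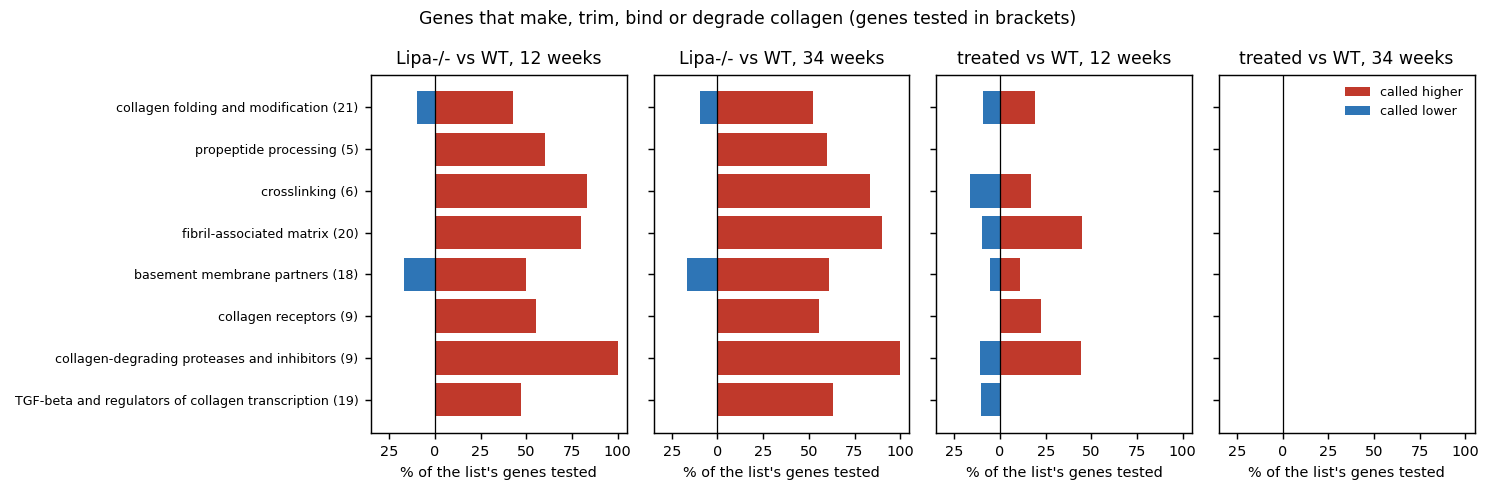
Share of each list's tested genes (number in brackets) called higher (red, to the right) or lower (blue, to the left), in %, for 4 comparisons. All 9 proteases and inhibitors are red in Lipa-/- mice at both times, and no bar is present for treated mice at 34-weeks.

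Against Lipa-/- mice, treated mice at 34-weeks were lower for 5 of 6 crosslinking, 10 of 21 folding, 16 of 20 fibril-associated, 12 of 18 basement membrane and 12 of 19 TGF-beta and PDGF genes, 3 of 5 propeptide genes, 5 of 9 receptors and 7 of 9 proteases and inhibitors, where 18.6% of all genes were lower. Higher were 2 folding and 2 basement membrane genes, where 12.8% of all genes were. In treated mice at 34-weeks none of the genes on these 8 lists was called against WT mice. The median log2 fold change was still 1.08 for the proteases and inhibitors, against 0.07 to 0.43 for the other lists and 0.00 for all genes. The missed threshold thus does not show equal levels. At 12-weeks, where 13.6% of all genes were called higher and 12% lower against WT mice, fibril-associated genes were higher for 9 of 20 and lower for 2, proteases and inhibitors higher for 4 of 9 and lower for 1, folding genes higher for 4 of 21 and lower for 2, and TGF-beta and PDGF genes higher for none of 19 and lower for 2. Basement membrane partners were higher for 2 of 18 and lower for 1, receptors higher for 2 of 9, crosslinking genes higher for 1 of 6 and lower for 1, and propeptide genes were not called for any of 5. Serpinh1 stood 1.78 above WT mice on the log2 scale at that time and Dcn, decorin, 1.85, whereas Bgn, the related biglycan, was at -1.06 and Mmp14 at -1.28.

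The 14 collagen symbols with 100 reads or fewer were read too rarely to describe by group. Col2a1 had no read in any mouse, Col25a1 with 98 reads fell just below the limit, and Col8a2 with 112 reads and Col7a1 with 141 were the members just above it. The others were Col10a1, Col11a1, Col17a1, Col19a1, Col22a1, Col24a1, Col26a1, Col28a1, Col6a4, Col9a1, Col9a2 and Col9a3, with 2 to 85 reads in all. The 63 reads of Col22a1 included 35 from Lipa-/- mice at 34-weeks, and a fit with no filter on low counts called it higher there than in WT mice (3.07, adjusted p = 0.0292). The same fit called Col22a1 lower in treated than in Lipa-/- mice at 12- and 34-weeks (-5.52 and -3.63, adjusted p = 0.0129 and 0.0165) and Col25a1 higher at 12-weeks (3.20, adjusted p = 0.0326).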

How the data were processed

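Liver RNA of 18 mice was sequenced by the authors as polyA-selected paired-end libraries. The authors quantified transcripts with Salmon against Ensembl mouse cDNA (GRCm39), and the gene-level estimated counts they deposited were made with tximport. The deposited TPM values and effective lengths come from the same step by the authors, and TPM is per length and per library. A deposited table of the authors' own comparisons (fold changes and p-values) was not used. Their processing notes name R 4.3.0 and DESeq2 1.40.1.

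Estimated counts, of which 19.4% were not whole, were rounded, genes with more than 100 reads in all were kept, and 1 edgeR 4.0.16 quasi-likelihood model with 6 group means and TMM factors was fitted (R 4.3.3), with Benjamini-Hochberg adjustment over all 14533 genes. The method was tested on simulated data. Alternatives used DESeq2 1.42.0, limma 3.58.1 on TPM, other scalings, filters and thresholds, gene-length offsets, only the groups compared, and each mouse left out. Replicates are separate mice. Errors on CPM, TPM, shares and ratios are SDs of 3 mice, and errors on log2 fold changes are SEs from the edgeR fit. A count of 3 reads in a library was taken as the floor of counting.

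The collagen genes, marker lists and partner lists were chosen with earlier results of these data known. Genes described in full were the most abundant of each family (4 fibrillar, 2 in others) and the 3 called with the largest change in each direction, and the other collagen genes with values were chosen after their values were seen. The numbers of mice do not pair samples, since deviations of same-numbered mice correlated at -0.405 to 0.635.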

Additional observations from a re-analysis of the deposited data

Results flagged for a closer look

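The difference of Col3a1 between treated Lipa-/- and WT mice was flagged because it changed between 12- and 34-weeks in a test of that change itself, by -3.04 ± 0.72 on the log2 scale (SE, adjusted p = 0.024, edgeR). Treated mice held 267, 115 and 45 CPM at 12-weeks and 22.9, 23.4 and 30.5 CPM at 34-weeks, and WT mice 8.04, 16.5 and 15.8 CPM and 14.9, 22.9 and 21.7 CPM. Without treated mouse 10 at 12-weeks the change was -2.14 and was not called (adjusted p = 0.0591). Nor was it called when WT mouse 1 or 3 at 12-weeks, WT mouse 1 at 34-weeks or treated mouse 9 at 34-weeks was left out, when WT and treated mice alone were fitted (adjusted p = 0.0555), or on TPM with limma (adjusted p = 0.27). Time and study code cannot be told apart here.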

How the results depend on the processing

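No called result changed sign under these alternatives. Of 870 alternative values of 62 gene results, 798 kept their side of the threshold and 72 no longer passed it. The count of collagen genes called in treated against WT mice at 12-weeks, 11, was 6 on TPM, 5 at an adjusted p under 0.01, and 3 to 12 with a mouse left out (6 without WT mouse 1, 5 without WT mouse 3, 3 without treated mouse 10). Treated against Lipa-/- mice at 12-weeks gave 11, then 19 with total-count scaling and 18 on TPM. Lipa-/- mice between times gave 0, then 9 with DESeq2 and 3 on TPM. Treated mice between times gave 6, then 10 on TPM and 0 with the replicate block, and WT mice between times gave 0 with the replicate block as well. Mouse numbers do not pair the samples. The change of the treated-to-WT difference between times gave 1, then 4 with DESeq2, 3 with total-count scaling or gene-length offsets, 2 with upper-quartile factors, no filter or TPM, 0 with only the groups compared or an adjusted p under 0.01, and 0 to 3 with a mouse left out (0 without WT mouse 1 or 3 or treated mouse 10 at 12-weeks, or WT mouse 1 or treated mouse 9 at 34-weeks). The causes were not tested. Low-count genes such as Col8a2, Col7a1 and Col4a4 are limited by depth.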
